A study of Mus musculus with 4 samples.

Results

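The genes described here encode 8 enzymes and transporters that shorten the side chain of bile acid precursors in peroxisomes and then join the product to an amino acid. They are Amacr, Acox2, Hsd17b4, Scp2, Abcd3, Slc27a5, Acot8 and Baat, taken as a named list from the 21887 protein-coding genes on the placed chromosomes of the RefSeq table. Every listed peak of MafG whose midpoint lay inside one of them or within 50 kb of it was collected. That gave 53 of the 68763 peaks in the deposited list, and none of the 53 was shared between members. The series is a chromatin immunoprecipitation with sequencing (ChIP-seq) study of livers from C57BL6/J mice. In 2 libraries the livers carried Ad BLRP MAFG, which overexpressed MafG joined to the BLRP peptide tag, and in 2 libraries they carried Ad BLRP Control. In both groups the chromatin was precipitated with an Avi-tag antibody. The labels do not state the animals' age or sex, or the time after delivery. No library held tagged MafG at its native level. The tissue label was not checked against marker genes, because a peak list holds no expression values.

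Liver cells make bile acids from cholesterol by changing the sterol ring and then cutting the side chain. The side chain is shortened inside peroxisomes by a round of beta-oxidation. Abcd3 (PMP70) brings the coenzyme A (CoA) esters of the precursors across the peroxisomal membrane. Amacr, a racemase, turns them into the isomer that the oxidase accepts. Acox2, the branched-chain acyl-CoA oxidase, takes the first oxidation step, Hsd17b4, the D-bifunctional protein, adds water and oxidises again, and the thiolase form of the Scp2 product releases the shortened acid. Slc27a5 is a bile acyl-CoA synthetase, Acot8 a peroxisomal thioesterase that splits CoA esters, and Baat the enzyme that joins bile acids to taurine or glycine. MafG belongs to the small MAF proteins, leucine zipper factors that bind DNA as dimers and have no transactivation domain of their own. The classical MAF recognition element has the 9 letters TGACTCAGC with TGC before them and A after them, and the antioxidant response element (ARE) bound by small MAF proteins with partners such as NRF2 holds TGACNNNGC. The series title frames the study as one of MAFG as a repressor of bile acid synthesis and metabolism.

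Values come from 1 BLRP-MafG and 1 control collection of tags (mapped reads). There is no value per library, so no difference could be tested between animals. The normalized tag count is the number of BLRP-MafG tags in a 200 bp peak per 10000000 tags, and it is printed with the exact 95% Poisson interval of its tags. BLRP-MafG had 20406492 tags in all, and the deposited fold values put the control at about 1.72e+07. All intervals cover counting error only. Positions are on mm10.

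Of the members with a start site in the RefSeq promoter table, Acox2 was the one with a peak over it. The table covers 250 bases before to 50 bases after a start. It holds 6 windows for 4 of the members (Acox2, Abcd3, Scp2 and Acot8). The other 4 had no window, so peaks over their starts could not be assessed. A peak midpoint lay in 6.99% of the table's 32817 windows. Among the members it lay in both windows of Acox2, which belong to neighbouring starts and share 1 peak. The window of the upstream Acox2 start, chr14:8258970-8259269 on the minus strand (RefSeq, GRCm38.p6), is shown because the peak lies on it. The capitals mark a match to TGACNNNGC, read on the opposite strand.

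Acox2: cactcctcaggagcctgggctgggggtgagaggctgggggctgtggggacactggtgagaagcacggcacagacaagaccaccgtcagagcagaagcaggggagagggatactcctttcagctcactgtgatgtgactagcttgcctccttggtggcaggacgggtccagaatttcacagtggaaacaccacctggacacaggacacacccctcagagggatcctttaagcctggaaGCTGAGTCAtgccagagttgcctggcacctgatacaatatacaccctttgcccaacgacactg

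The match at Acox2 reads TGACTCAGC on the opposite strand and occupies chr14:8259024-8259032. It ran from 13 to 5 bases before the start and lay 9 bases from the midpoint of the peak. Set against the 13-base recognition element, the site is given on the strand of the match, with the letters it shares with the element in capitals.

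Acox2 site: gcaTGACTCAGCt

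The Acox2 site matched 9 of the 13 letters. A match of at least 9 letters occurred in 47.7% of all windows of the table, in 54.7% of those with a peak midpoint and in 47.1% of those without. TGACNNNGC on either strand was present in 19.3% of windows with a peak midpoint, against 11.9% of those without and 12.4% of all. The exact letters TGACTCAGC, a search added after the Acox2 site had been seen, occurred in 1.39% of windows with a peak midpoint, 0.383% of those without and 0.454% of all. TGACTCAGC is 1 case of TGACNNNGC, so the searches overlap. The longer core, in which an A follows these letters, was in 0.155% of all windows and in 0 of the 6 member windows. These matches describe the letters in the windows and do not show a bound site.

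Scp2 offers the contrast of a match without a listed peak over it. That was the commoner case, as 444 of the 4063 windows with TGACNNNGC held a peak midpoint. The Scp2 window at chr4:108118498-108118797 on the minus strand is shown with its TGACNNNGC match in capitals. The match reads TGACGCTGC on the gene's own strand and spans the start.

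Scp2: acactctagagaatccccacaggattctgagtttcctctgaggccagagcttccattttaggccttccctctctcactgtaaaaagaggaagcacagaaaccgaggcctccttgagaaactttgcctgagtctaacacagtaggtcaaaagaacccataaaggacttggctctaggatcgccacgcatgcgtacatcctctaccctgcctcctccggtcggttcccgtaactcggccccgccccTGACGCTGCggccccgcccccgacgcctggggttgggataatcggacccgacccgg

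The nearest peak to that Scp2 start, of 8.33, had its midpoint 1989 bases downstream of it. The other Acox2 window held the same Acox2 site, from 193 to 185 bases before its start, and the windows of Abcd3 and Acot8 held no match to TGACNNNGC. One Abcd3 window had the 6-base half-site TGCTGA, from 199 to 194 bases before its start, a sequence present in 19.5% of all windows. Its nearest peak was 229 bases into the gene and did not reach the window. Acot8 had none of the 3 motifs in its window, and the peak nearest to its start was 14237 bases away.

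**Figure D1:**
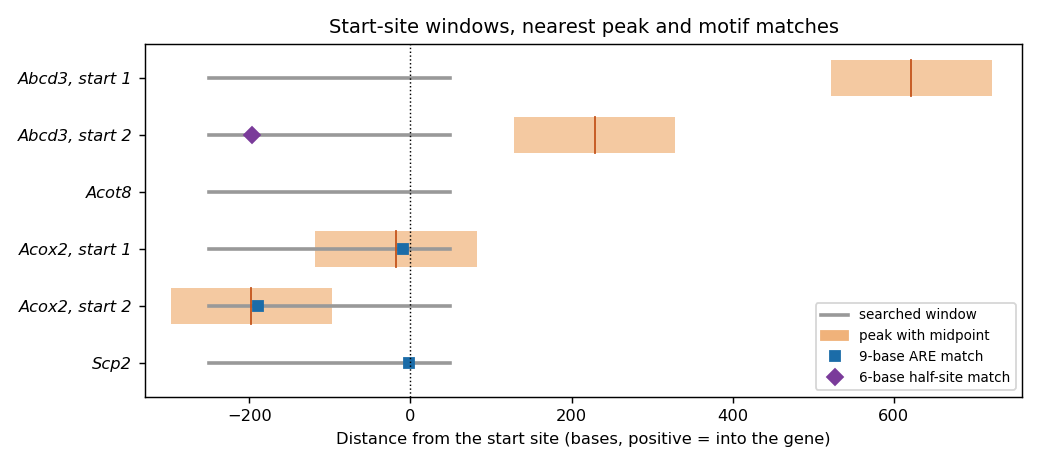
Searched windows of the 6 member start sites (grey lines, in bases from the start, positive into the gene), the nearest peak where it reached the plotted range (orange box, midpoint as a line) and the motif matches (square for TGACNNNGC, diamond for TGCTGA). The Acox2 match lies 9 bases from the midpoint of its peak, whereas the peak at Abcd3 lies 229 and 622 bases into the gene from its starts.

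A peak at an end of Amacr carried none of these motifs. Its midpoint lay 55 bp outside the lower-coordinate end of the gene, in the interval between Amacr and the long non-coding RNA gene Gm34315. The peak itself reached across that end of Amacr, and whether the end is the start of Amacr could not be read. The start of Gm34315 lies 123 bp from that end of Amacr, under the same peak, so the peak cannot be given to either gene. The 201 bases of the peak, chr15:10981601-10981801 read on the minus strand from the Gm34315 window, are shown for comparison with Acox2. There are no capitals, because TGACNNNGC, TGCTGA and TGACTCAGC followed by A each had 0 matches.

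Amacr end: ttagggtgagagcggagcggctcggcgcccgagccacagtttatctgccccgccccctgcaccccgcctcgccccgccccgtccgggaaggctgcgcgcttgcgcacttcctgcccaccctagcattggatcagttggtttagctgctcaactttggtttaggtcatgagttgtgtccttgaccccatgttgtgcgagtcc

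Counts of members with a peak are set here beside the share of all genes. All 8 members had a peak inside or within 50 kb, a share close to the 93.5% of all protein-coding genes that have one. Within 10 kb 7 of 8 had one, every member but Baat, against 74.5% of all genes. A peak midpoint lay inside 3 members (Hsd17b4, Scp2 and Abcd3), against 50.5% of all genes. Within 1 kb of a gene end there were peaks for 3 members (Amacr, Acox2 and Abcd3), against 24.5% of all genes. With 8 genes, 1 gene more or less moves each share widely, and none of these counts was tested. The median of the members' highest normalized tag counts was 22.6, against 33.8 over all protein-coding genes, and 6 of 8 members stood below that median. Within 10 kb the order was the other way, with a median of 17.1 for the members and 13.7 for all genes, and 3 of 8 members stood below the median of all genes. Peaks were slightly denser than usual, with a median of 4.36 per 100 kb of gene and flanks, against 3.53 over all genes.

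The 53 peaks had a median normalized tag count of 11.3, against 12.3 over all 68711 peaks on placed chromosomes. They ranged from 5.88 to 258.3, 25 lay below 10 and 4 above 40. Those 4 were all near Scp2 or Abcd3. By position, 13 peaks lay inside a member, 6 outside it within 10 kb and 34 from 10 to 50 kb away. For 27 of the 53 (50.9%) another protein-coding gene was nearer than the member. In total the peaks held 2122 BLRP-MafG tags, against 58 control tags. The control had 0 tags in 17 of them (32.1%), against 44.4% of all peaks, 1 tag in 26, and at most 6. Low control counts follow in part from the peak caller, which required a 10-fold excess over control. The lower bound of the ratio to control exceeded 10 in 4 peaks only.

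**Figure D2:**
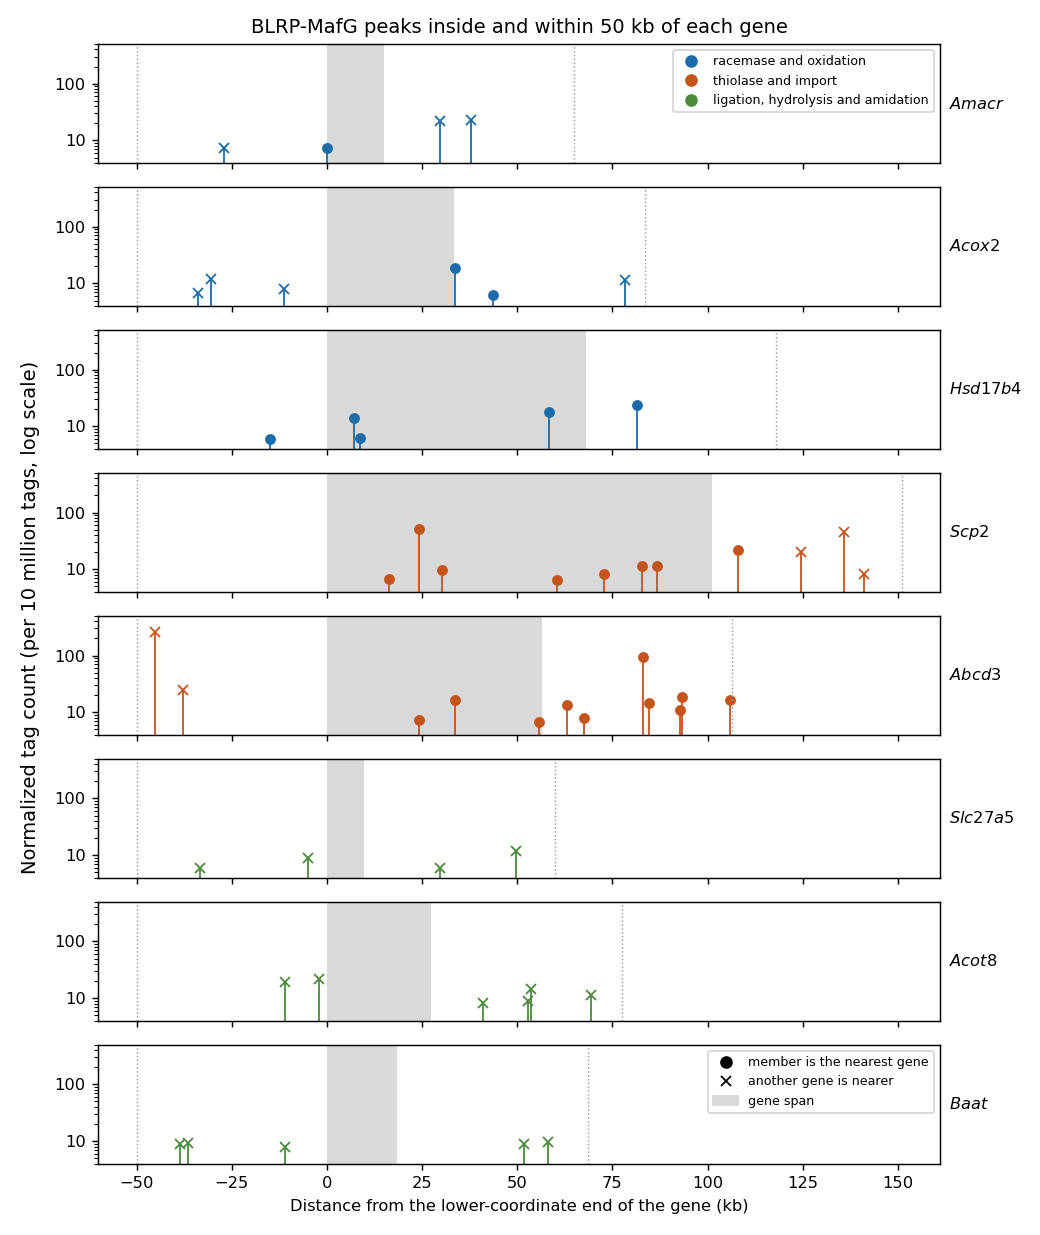
Position and height of the 53 peaks, with distance in kb from the lower-coordinate end of each gene on the x axis, the gene span in grey, the 50 kb limits dotted, and the normalized tag count on a log y axis, coloured by role. Circles mark peaks whose nearest protein-coding gene is the member and crosses those with another gene nearer. All 15 peaks of Slc27a5, Acot8 and Baat are crosses, whereas all 5 of Hsd17b4 are circles.

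The racemase and oxidation genes had 15 peaks, none above 23.5. Amacr (chr15:10981756-10996624) had 4 peaks, of 7.35, 7.35, 21.6 and 23.0. The 2 higher ones lay inside the neighbouring gene Slc45a2, 14847 and 22871 bp beyond the higher-coordinate end of Amacr. The peak at its lower end held a normalized tag count of 7.35 (4.11 to 12.1), with 0 control tags. With the control set to a floor of 3 tags, BLRP-MafG was 4.22-fold higher there. The exact interval of the ratio to the counted 0 tags starts at 3.03. This peak stood above 18.9% of all peaks.

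Acox2 (chr14:8225511-8259019) had 6 peaks, of 6.86, 11.8, 7.84, 18.6, 6.37 and 11.3 in order of position. The peak over its start, chr14:8258937-8259137, was the highest of the 6. It held 38 BLRP-MafG tags, against 1 control tag, a normalized tag count of 18.6 (13.2 to 25.6). The ratio to control was 32.1 (5.42 to 1299), and 10.7 with the control set to the floor of 3 tags. In the authors' deposited table this peak had a fold over control of 32.06. The ratio above repeats that value, because the control total was inferred from such deposited folds. This peak's deposited fold over the surrounding 10 kb was 11.42. Its interval did not overlap that of the Amacr end peak. Compared with all peaks it was of middling height, above 67.3% of them. The next peak upstream, of 6.37, was 10166 bp from the start, and the 3 peaks on the other side of Acox2 were nearer to Pdhb or Kctd6, or inside Kctd6. The last, of 11.3, lay inside Fam107a.

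Hsd17b4 (chr18:50128201-50196270) was the member whose peaks all had it as the nearest protein-coding gene. Inside it stood 3 peaks, of 14.2 (9.52 to 20.4), 6.37 (3.39 to 10.9) and 17.6 (12.4 to 24.4), each with 1 control tag. The first of these also lay inside the pseudogene Cd63-ps (a copy related to another gene). Whether its reads could also be placed elsewhere was not tested. The highest Hsd17b4 peak, of 23.5 (17.3 to 31.2) at chr18:50209565-50209765, lay 13395 bp beyond the higher-coordinate end, with 3 control tags and a ratio of 13.5 (4.35 to 67.7). The intervals of that peak and of the 2 higher peaks inside the gene overlapped. No peak lay within 1 kb of either end.

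The thiolase and import genes, Scp2 and Abcd3, had 23 of the 53 peaks and the 4 highest. Scp2 (chr4:108043830-108144971) is the longest of the members, at 101142 bp, and had 11 peaks. Inside it were 7, of 6.86, 50.5, 9.80, 6.37, 8.33, 11.3 and 11.3 in order of position. The peak of 50.5 (41.2 to 61.2) at chr4:108067995-108068195 was above the intervals of the other 6. It held 103 BLRP-MafG tags, against 6 control tags, a ratio of 14.5 (6.43 to 40.4). That peak ranked above 90.3% of all peaks and made Scp2 the member with the highest peak within 10 kb, at the 83.2 percentile of protein-coding genes. The start in the promoter table lies inside the RefSeq span of Scp2, so the 2 peaks of 11.3 were 7958 and 12072 bases upstream of that start. The peak of 50.5 was 50452 bases downstream of it.

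Outside Scp2, a peak of 21.6 (15.7 to 28.9) lay 6929 bp beyond the higher-coordinate end, and Scp2 was the nearest protein-coding gene. The other 3, of 20.1, 45.6 and 8.33, lay inside or closest to Echdc2 or inside Zyg11a. The peak of 45.6 (36.8 to 55.8) was 34774 bp from Scp2, with 1 control tag. It lay between Echdc2, 437 bp away, and Zyg11a, whose lower-coordinate end is at chr4:108180245. The ratio was 78.5 (13.7 to 3132), and 26.2 against the floor. Its interval overlapped that of the peak of 50.5 inside Scp2.

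Abcd3 (chr3:121758904-121815302) had 12 peaks, or 7.67 per 100 kb, which put it at the 94.8 percentile of protein-coding genes. The 3 inside the gene were low, at 7.35 (4.11 to 12.1), 16.7 (11.5 to 23.3) and 6.86 (3.75 to 11.5). The last of these lay 622 bases into the gene from its upstream start and had 0 control tags. On the upstream side 7 peaks, of 13.7, 7.84, 92.6, 14.7, 10.8, 18.6 and 16.7, stretched from 6644 to 49469 bp from that start. Abcd3 was the nearest protein-coding gene to all 7. The tallest of these, at chr3:121841723-121841923, held 189 BLRP-MafG tags, against 0 control tags. Its normalized tag count of 92.6 (79.9 to 106.8) exceeded 95.9% of all peaks. Against the same floor BLRP-MafG was 53.1-fold higher, and the exact interval of the ratio to the counted 0 tags starts at 42.8. It lay 26521 bp upstream of the start and 4271 bp from the long non-coding RNA gene Gm33924, while peaks of 10.8 and 18.6 lay inside another such gene, Gm33987.

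On the downstream side Abcd3 shares its 50 kb flank with F3, which encodes the coagulation starter tissue factor. Of the 2 peaks there, the one at chr3:121713506-121713706 was the highest near any member, with a normalized tag count of 258.3 (236.7 to 281.3). It held 6 control tags, a ratio of 74.1 (33.8 to 202.8), and exceeded 99.4% of all peaks. Its midpoint was 45298 bp from Abcd3 and 9931 bp from F3. Without the peaks nearer to F3, the highest value of Abcd3 is 92.6, and within 10 kb it is 16.7, at the 55.2 percentile of protein-coding genes.

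**Figure D3:**
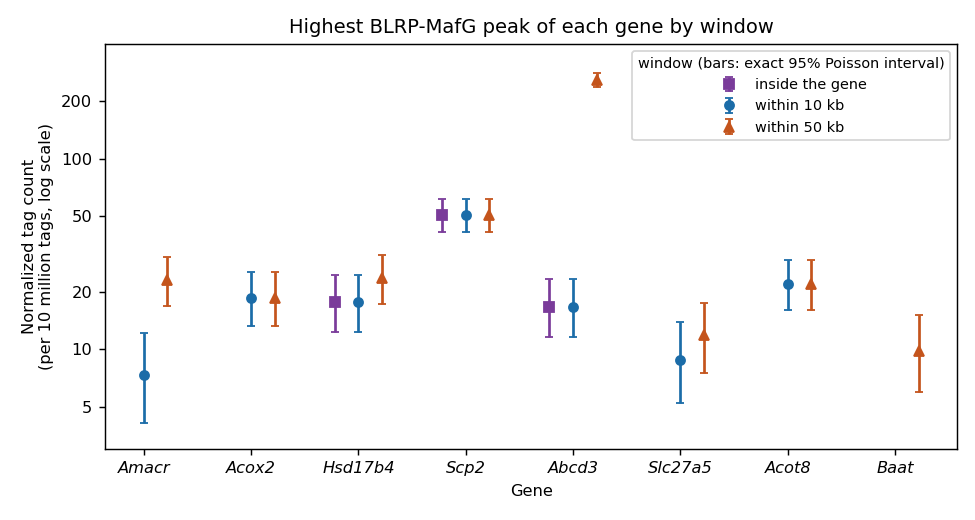
Highest normalized tag count of each gene (log y axis) inside the gene, within 10 kb and within 50 kb, with exact 95% Poisson intervals as bars. Scp2 has the same value of 50.5 in every window, Abcd3 has 16.7 within 10 kb and 258.3 within 50 kb, and Baat has a value within 50 kb alone.

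The genes of CoA ligation, hydrolysis and amidation had 15 peaks, with 0 inside a member. For each of the 15 another protein-coding gene was nearer. Slc27a5 (chr7:12988346-12998192) had 4 peaks, of 5.88, 8.82, 5.88 and 11.8. The nearest, of 8.82 (5.23 to 13.9), lay 4925 bp outside it and inside Zfp446, and the highest, of 11.8 (7.54 to 17.5), lay over the start of Ube2m, 39746 bp away. Within 50 kb of Slc27a5 lie 8 other protein-coding genes. Its highest peak was at the 16.5 percentile of protein-coding genes.

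Acot8 (chr2:164792768-164820219) had 6 peaks, of 19.6, 22.1, 8.33, 8.82, 14.7 and 11.3, in a stretch with 11 other protein-coding genes within 50 kb. The peak of 22.1 (16.1 to 29.5) was 2124 bp outside its lower-coordinate end, inside Snx21, with 3 control tags and a ratio of 12.7 (4.06 to 63.7). The peak of 19.6 was 1990 bp from Tnnc2. On the other side, peaks of 8.82 and 14.7 lay inside Pltp, the phospholipid transfer protein gene. The peak of 8.33 lay inside Ctsa, over a start of Ctsa, and reached the start-site window of Neurl2.

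Baat (chr4:49489416-49507915) was the only member with no listed peak within 10 kb. Its 5 peaks were of nearly equal height, at 8.82, 9.31, 7.84, 8.82 and 9.80, and their intervals overlapped. The nearest, of 7.84 (4.48 to 12.7), lay 11112 bp away, and 24.2% of protein-coding genes had their nearest peak farther off. On the lower-coordinate side 3 peaks lay inside Acnat1, a gene of the same acyltransferase family, and 2 peaks lay on the other side. The highest, of 9.80 (5.99 to 15.1), had 0 control tags. Against the floor BLRP-MafG was 5.62-fold higher there, and the exact interval of the ratio to the counted 0 tags starts at 4.16. A highest value of 9.80 put Baat at the 13.6 percentile, the lowest of the 8.

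**Figure D4:**
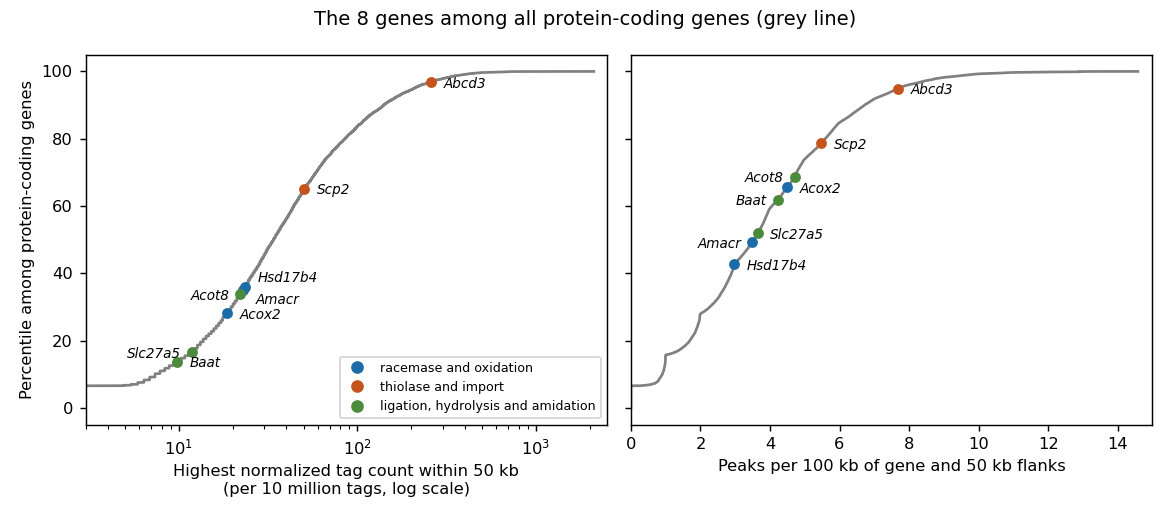
Percentile of the 8 genes among all protein-coding genes (grey line) by the highest normalized tag count within 50 kb (left, log x axis) and by peaks per 100 kb of gene and flanks (right), coloured by role. Abcd3 and Scp2 are the 2 highest on both axes, at the 96.8 and 65.1 percentile by height, and Baat is the lowest by height, at 13.6.

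Setting members side by side, the interval of Scp2's peak of 50.5 lay above the intervals of the highest peaks of Amacr (23.0, 16.9 to 30.6), Acox2, Hsd17b4, Slc27a5, Acot8 and Baat. The intervals of Amacr, Acox2, Hsd17b4 and Acot8 overlapped one another, so their order cannot be read. Baat's interval was below that of Hsd17b4, Amacr and Acot8 and overlapped those of Acox2 and Slc27a5. The 50 kb limit also decides some of these values. The first peak beyond it was 50678 bp from Acox2 and had a value of 27.4, above all those inside the limit. Abcd3 had one of 12.7 at 50662 bp, Baat one of 11.3 at 52108 bp, above its highest value of 9.80 inside the limit, and Acot8 one of 51.5 at 54734 bp.

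**Figure D5:**
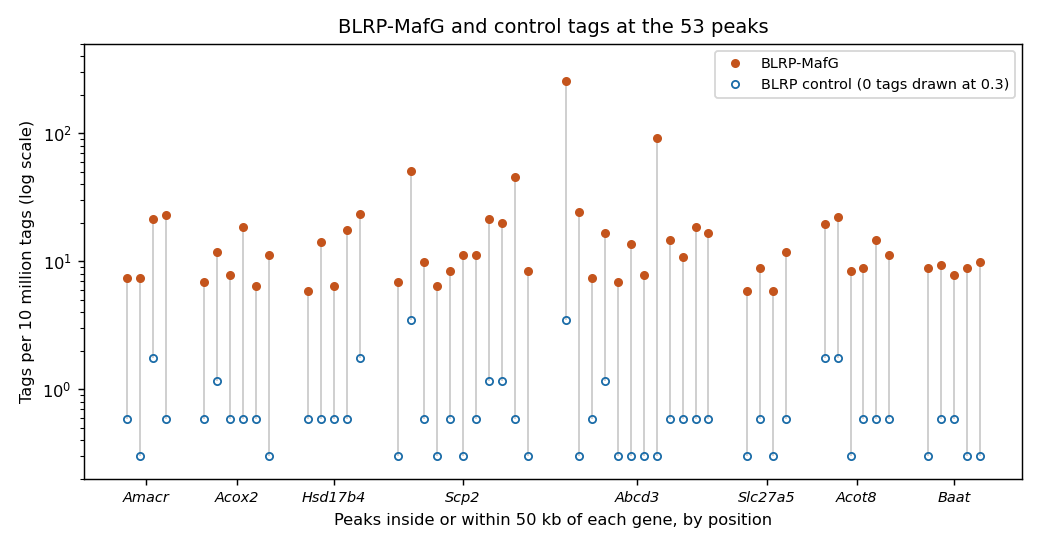
Tags per 10000000 tags (log y axis) in BLRP-MafG (filled) and in the BLRP control (open, 0 tags drawn at 0.3) at each of the 53 peaks, ordered by position within each gene. BLRP-MafG lies above the control at every peak, as the caller required, and no peak holds more than 6 control tags.

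The highest peaks around the 8 members had a median of 22.6, and those around 13 other genes of bile acid synthesis one of 40.7. All 13 had a peak within 50 kb, where 93.5% of all genes have one, and 12 had one within 10 kb, against 74.5% of all genes. A peak lay inside 8 of them, against 50.5% of all genes, and within 1 kb of an end of 6, against 24.5%. Over all genes the median was 33.8. Within 10 kb it was 17.1 for the members, 28.4 for the 13 genes and 13.7 over all genes. The 3 highest within 50 kb were 691 near Slc27a2, 271 (248.9 to 294.5) at 15846 bp outside Cyp39a1, and 194.5 (175.9 to 214.7) inside Akr1d1, the steroid 5-beta-reductase gene. The difference between this list and the 8 members was not tested.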

How the data were processed

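The series holds 4 ChIP-seq libraries and 1 peak list. Per the submitters' processing notes, Bowtie2, HOMER and the build mm10 were used. No version is stated. HOMER findPeaks compared 1 BLRP-MafG tag collection with 1 control collection, per the file headers, which do not say how many libraries each held. Peaks had to exceed the control by 10-fold (Poisson p of 1e-06) and their surrounding 10 kb by 4-fold. The deposited normalized tag signal was scaled by the authors to 10000000 tags. The deposited control signal is unscaled, with 0.5 standing for 0 tags. Fold values were deposited as linear ratios and p-values as the caller's Poisson p-values over tags. The deposited peak score was not used.

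Multiplied back by the stated total, every normalized value lay within 0.102 of a whole number. These tags gave exact 95% Poisson intervals, and the ratio to control got a conditional binomial one (exact, 95%, scipy 1.17.1). The control total was inferred from the deposited fold values. Distances run from the peak midpoint to the RefSeq gene ends of GRCm38.p6, the assembly of mm10. Exons and introns were not separated, and start sites came from the RefSeq promoter table. A percentile counts genes below a value plus 0.5 of the ties. In medians and percentiles over genes, a gene without a peak in the window had a height of 0. Peak assignment, intervals and motif search were tested on simulated data. Alternatives were a fold of 20, a tag count of 10, any base of a peak, the nearest gene only, narrower windows and other motifs. All members were named, with every peak inside them and the highest within 50 kb. From the other lists, up to 3 genes were named by their highest peak within 50 kb. The members and lists were chosen with earlier results of these data known. Motif matches of at least 9 of 13 letters and of TGACTCAGC were added after the data were seen.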

Additional observations from a re-analysis of the deposited data

How the results depend on the processing

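Assigning a peak only to its nearest protein-coding gene left 26 peaks and 5 of 8 members with a peak within 50 kb. The median highest normalized tag count over all 8 was then 12.98, with members left without a peak counted as 0. The 5 members that kept a peak had highest values of 7.35 (Amacr), 18.6 (Acox2), 23.5 (Hsd17b4), 50.5 (Scp2) and 92.6 (Abcd3). A normalized tag count of at least 10 left 28 peaks, 7 members with a peak within 50 kb and 1 member, Acox2, with a peak within 1 kb of an end. A fold of at least 20 over control also left 28 peaks. Counting any base of a peak put peaks inside 5 members, with Amacr and Acox2 added. The shares of all genes given above hold for the main setting, so these counts of members cannot be set against them. There were 19 peaks within 10 kb and 13 inside members. Inside, the median of the members' highest values was 0, because a member without a peak there counted as 0. Of the 6 start-site windows, 0 held TGACTCAGC followed by A and 1 held TGCTGA. TGACNNNGC was in 3, of which 2 share the same Acox2 site, and TGACTCAGC was in those 2 alone. In 4 windows at least 9 of 13 letters matched. The other 18 counts and medians stayed within 1.5 times or within the counting interval, as did 35 values of single members. Another 6 values of single members moved (highest values of Amacr, Abcd3 and Acot8). Within that margin, the members with a peak within 10 kb fell from 7 to 5 at a fold of 20. The count was also 5 at a tag count of 10 and with the nearest gene only. Slc27a5 lost its peak within 10 kb each time. Acot8 lost its own at the fold of 20 and with the nearest gene only, and Amacr at the tag count of 10. Other values vanished. With the nearest gene only, Slc27a5 (11.8), Acot8 (22.1) and Baat (9.80) had no peak left, and at a tag count of 10 Baat had none. At a fold of 20 the Scp2 peak of 50.5 dropped out, which left Scp2 a highest value of 11.3 within 10 kb and 45.6 within 50 kb. No paired analysis was possible because the list holds no value per library, and for the same reason no library could be left out. Signal below the caller's limits is not listed, and the ratio of a peak with 0 or 1 control tags is known only roughly.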

Other observations

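All 12 genes of peroxisomal fatty acid oxidation had a peak within 10 kb, against 74.5% of all protein-coding genes, and the median of their highest values within 50 kb was 31.6. The highest, of 618.9 (585.3 to 654.0), lay inside Acox3, an acyl-CoA oxidase gene related to Acox2, at chr5:35591641-35591841 with 1 control tag. Among 16 genes of peroxisome biogenesis, 14 had a peak within 10 kb, against 74.5% of all genes, and 9 within 1 kb of an end, against 24.5%, with a median highest value of 38.0 within 50 kb. The 3 highest all lay outside their genes, with 158.3 (141.5 to 176.5) at 19543 bp from Pex16, 145.1 (129.0 to 162.6) at 19491 bp from Pex11g and 78.4 (66.7 to 91.5) at 20411 bp from Pex6. Over all protein-coding genes the median of the highest values within 50 kb was 33.8. Peaks per 100 kb of gene and flanks had medians of 5.95 for the fatty acid oxidation genes and 4.00 for the biogenesis genes. The same median was 4.36 for the 8 members, 3.26 for the 13 other bile acid synthesis genes and 3.53 over all genes. No difference between lists was tested.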
